A study of Homo sapiens with 480 samples.

Results

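The cells described here are the TRA-1-60 positive cells sorted on day 16 of the reprogramming of BJ fibroblasts. They are divided by whether RNA of COL1A2, the α2 chain of type I collagen, was detected in them. FPKM of each cell were rescaled to a total of 1000000, a gene counted as detected at 1 or more, and cells with 2000 or more detected genes were kept. Of the 96 positive cells, 95 were kept; the cell left out had 435 detected genes. The sides were chosen by the measured COL1A2 value: it was at 1 or more in 57 kept cells, called cells with COL1A2, and under 1 in 38, called cells without COL1A2. The series holds 480 cells in 5 groups of 96. BJ is a fibroblast line established from human newborn skin, and the day-16 cells carried virally delivered, induced OCT4, SOX2, KLF4 and MYC. For comparison of levels, the TRA-1-60 negative fraction of the same day, which carried the same 4 factors, kept 85 cells and BJ without the factors kept 92. The labels record no repeat cultures or infections; each group is therefore 1 sample, within which cells are not replicates.

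Type I collagen is the main fibrillar collagen of dermis, assembled from chains of COL1A1 and COL1A2, and dermal fibroblasts are its main source. The chains are hydroxylated and folded in the endoplasmic reticulum, trimmed of their propeptides outside the cell and crosslinked by lysyl oxidases. TRA-1-60 is a carbohydrate epitope carried by podocalyxin, the product of PODXL, on the surface of pluripotent stem cells. During reprogramming, fibroblast genes are turned off and genes of the pluripotency network are turned on, and a sort on the epitope enriches for cells in which this has happened.

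Because the sides were drawn on a measured gene within 1 sample, all differences between them are descriptions of these 95 cells, with no test, standard error or p-value. Binomial intervals are exact (Clopper-Pearson) at 95% and cover counting error only. The tables hold no read counts, so the depth of a cell is unknown, and the number of detected genes is the only measure of its complexity. That number had a median of 5915 in cells with COL1A2 (2759 to 8794) and of 5735.5 in cells without (2765 to 7993). Small and mitochondrial RNA genes took a median of 5.08% of the total in cells with COL1A2 and 5.70% in cells without, and up to 77.1% in 1 cell with it. All comparisons were therefore repeated in the 63 cells of 4000 or more detected genes, of which 40 were with and 23 without COL1A2; these are called gene-rich cells below and had medians of 6579 and 6248 genes, in that order.

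COL1A2 itself spread over 3 orders of magnitude in the cells with it. Its rescaled FPKM ranged there from 1.01 to 1204 with a median of 35.1 and a mean of 128 ± 229 (SD over 57 cells). The 5 highest cells held 52.8% of all COL1A2 in the positive fraction. In the 38 cells without it, 30 were at exactly 0 and 8 lay between 0 and 1. The values just inside the threshold were 1.01, 1.17 and 1.29, and those just outside it were 0.858, 0.843 and 0.622. Below, the cells with COL1A2 are also divided into 18 at 1 to under 10, 21 at 10 to under 100 and 18 at 100 or more.

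Most positive cells lay far below fibroblasts in COL1A2. The negative fraction had a median of 3355 (250 to 8246) and BJ a median of 1597 (28 to 6124), so the highest positive cells reached into both ranges. Whether the tables of the groups were normalized together is not stated. The share of positive cells with COL1A2 was 17 of 32 (53.1%, interval 34.7 to 70.9%) in cells of fewer than 4000 detected genes, 13 of 21 (61.9%, 38.4 to 81.9%) in cells of 4000 to under 6000 and 27 of 42 (64.3%, 48 to 78.4%) in cells of 6000 or more. The 3 intervals overlap. Since a cell of low complexity can miss a transcript that is present, a cell without COL1A2 is one in which none was found above the threshold, not one shown to lack it.

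**Figure D1:**
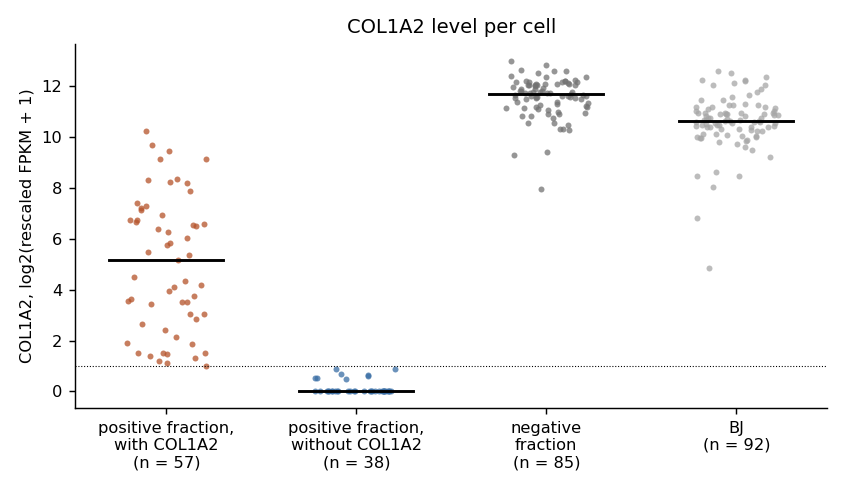
COL1A2 per cell as log2(rescaled FPKM + 1), with 1 point per kept cell and a bar at each median. The dotted line is the threshold of 1 that divided the positive fraction into 57 cells with and 38 without COL1A2; the cells with it spread from the line up to the lower values of the negative fraction and BJ.

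Both sides carried the genes that mark pluripotent cells. Of 32 pluripotency genes, cells with COL1A2 had a median of 18 detected (12 to 30) and cells without a median of 19 (11 to 27). The same count had a median of 4 in the negative fraction (0 to 10) and of 1 in BJ (0 to 7), so the lowest positive cell lay above the highest cell of both other groups. PODXL, which carries the sorted epitope, averaged 127 in cells with COL1A2, in 56 of 57 of them, and 135 in cells without, in 35 of 38. POU5F1, the gene of OCT4, averaged 0.302 over the kept positive cells, with 16.3 in the highest; it has near-identical copies in the genome between which reads can be split, so its level is uncertain.

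Cells with COL1A2 also held more RNA of many other matrix and fibroblast genes. The number of core fibroblast genes detected per cell was close on both sides over all kept cells, but not in gene-rich cells. For each gene the difference between sides is given as log2((mean with + 1)/(mean without + 1)), and a gene is called at least 2-fold higher or lower when this ratio is 1 or more in size and the mean of log2(value + 1) over cells differs in the same direction. A gene is measured when its mean is 1 or more in either side. Over all 13571 measured genes the median ratio was 0.15, and 18.6% were at least 2-fold higher and 11.5% at least 2-fold lower in cells with COL1A2. Among gene-rich cells the median was 0.04 over 13335 genes, with 15.6% higher and 9.34% lower. The lists overlap in part, COL1A2 is in none of them, and every count below is from the contrast that the sides define.

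Of the 10 fibrillar collagen chains, 8 were measured, 5 were at least 2-fold higher in cells with COL1A2 and 0 lower, with a median ratio of 1.40. Only COL1A1 and COL2A1 stayed higher when called by the difference of mean log2 values, or with 10 instead of 1 added to means. COL1A1, the partner chain of COL1A2 in type I collagen, was the farthest apart. It ranged from 0 to 218 in cells with COL1A2 and from 0 to 3.65 in cells without, with a median of 0 in both. The means were 12.7 with and 0.355 without, a ratio of 3.34 on the log2 scale, and 2.98 with the highest cell of each side left out. COL1A1 was detected in 19 of 57 cells with COL1A2 (33.3%, 21.4 to 47.1%) and in 5 of 38 without (13.2%, 4.41 to 28.1%). Thus 38 of the 57 cells with COL1A2 had no COL1A1 at 1 or more. The partner chain was in 16 of 40 gene-rich cells with and 4 of 23 without.

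COL2A1, the chain of cartilage collagen, was the most abundant fibrillar chain of the list in these cells. It averaged 112 in cells with COL1A2 (highest 1144) and 26.5 in cells without (highest 186), and was detected in 33 of 57 (57.9%, 44.1 to 70.9%) and 13 of 38 (34.2%, 19.6 to 51.4%). COL5A1 and COL5A2 encode chains of type V collagen, which forms fibrils with type I. COL5A1 averaged 6.98 with and 1.37 without, but had a ratio of -0.069 in cells of fewer than 4000 genes. COL5A2 averaged 40.5 with and 19.1 without, in a like share of cells (31 of 57 and 21 of 38), and was under 2-fold in gene-rich cells at 53.2 and 30.2. COL27A1 averaged 6.43 with and 1.03 without. COL3A1, which dermal fibroblasts make together with type I collagen, was nearly absent from both sides: 4 of 57 cells with and 4 of 38 without had it, and its means of 15.5 and 9.66 came mainly from single cells of 693 and 350. Without that cell on each side its means were 3.45 and 0.455.

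Among 30 chains of the other collagens, 20 were measured, 12 were higher and 1 lower in cells with COL1A2, with a median ratio of 1.11. Gene-rich cells gave counts of 11 and 1 of 20, and all 11 were among the 12. By the difference of mean log2 values only 2 of the 12 stayed higher, and with 10 instead of 1 added to means only 3. The shares of all measured genes called higher fell as well, to 4.21% and 4.44%. Without the highest cell of each side COL12A1, COL13A1, COL17A1 and the chain called lower, COL9A2, were no longer called. The type IV chains COL4A1 and COL4A2 form the network of basement membranes. COL4A2 averaged 51.3 with and 16.4 without, detected in 41 of 57 and 23 of 38 cells. COL4A1 averaged 43.7 with and 13.3 without, but 40.8 and 21.7 in gene-rich cells, where it was no longer 2-fold apart. COL6A1, of the beaded filaments of type VI collagen, was the highest of these chains, at 97.9 with and 44 without. COL6A3 was far lower, at 3.92 and 1.16.

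COL7A1, of the anchoring fibrils of skin, averaged 6.17 with and 0.176 without, in 13 of 57 and 3 of 38 cells. COL8A1 averaged 9.21 and 0.428, in 14 and 4 cells. COL25A1, a transmembrane collagen, averaged 13.5 and 0.672, where 1 cell with COL1A2 reached 560. The remaining chains called higher were COL12A1, COL13A1, COL17A1, COL4A4 and COL9A3, all with means under 10. In cells of fewer than 4000 genes COL8A1 and COL17A1 had ratios of -0.22 and -0.46. The chain called lower, COL9A2, averaged 0.161 with and 1.53 without. COL18A1 (16.1 and 11.9), COL26A1 (22.1 and 25.7) and COL21A1 (10.6 and 21.8) were not called, nor were COL4A3, COL4A5, COL6A2 and COL14A1 at means of at most 15.1. Per cell, a median of 7 of these chains was detected in cells with COL1A2 (1 to 14) and 4.5 in cells without (1 to 10).

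Some genes for folding, processing and crosslinking of collagen were called higher over all kept cells, and fewer in gene-rich cells. Of 24, 21 were measured, 7 were higher and 0 lower, with a median ratio of 0.61, beside 18.6% higher over all genes. In gene-rich cells 4 of 21 were higher and 0 lower, near the 15.6% of all measured genes called higher there. PCOLCE enhances cleavage of the C-propeptide and averaged 89.7 with and 31.5 without. BMP1, the protease that makes this cleavage, averaged 7.11 and 0.436, in 15 of 57 and 3 of 38 cells. The collagen hydroxylases P3H1 (79 and 17.8) and PLOD2 (42.7 and 16.3) were called higher over all kept cells; in gene-rich cells P3H1 averaged 54.1 and 28.6 and PLOD2 46.5 and 26.2, and neither was called. The others called higher were FKBP10, LOXL2 and P4HA2, of which P4HA2 averaged 10.8 and 12.3 in gene-rich cells. The chaperone SERPINH1 (148 and 133), the isomerase PPIB (1794 and 1316) and the disulfide isomerase P4HB (249 and 226) were abundant in almost every cell of both sides.

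Matrix glycoproteins and proteoglycans had 24 of 30 members measured, 8 higher and 0 lower, with a median ratio of 0.75. TGFBI, an adhesion protein of the matrix, ranged from 0 to 2704 with a median of 1.40 in cells with COL1A2, and from 0 to 1900 with a median of 0 in cells without. It was detected in 31 of 57 (54.4%, 40.7 to 67.6%) and 10 of 38 (26.3%, 13.4 to 43.1%), and its means were 190 and 69.4. POSTN, a periostin of fibroblast matrix, averaged 71.9 and 26.2, in 33 of 57 and 11 of 38 cells. TNC, tenascin C, averaged 14.5 and 1.8, in 18 and 4 cells. The others called higher were FBN2, LAMC1, MFAP5, NID2 and THBS1, of which THBS1 was at -0.049 in cells of fewer than 4000 genes.

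The most abundant glycoproteins were not among them. FN1, fibronectin, had medians of 27.9 with and 54.8 without and means of 101 and 92.6. VCAN, versican, was detected in all 95 cells, at means of 338 and 248. SPARC averaged 129 and 109, and FBLN1 97.3 and 112. DCN and LUM, small proteoglycans typical of dermal fibroblasts, were nearly absent: DCN was found in 1 of 57 cells with and 0 of 38 without, and LUM in 0 of 57 with and 3 of 38 without. Taking 3 cells as the limit that a count of 0 allows, in place of the exact interval, these are shares of up to 7.89% of 38 cells and 5.26% of 57. Among 10 measured matrix proteases and inhibitors, 4 were higher (MMP2, PLAT, SERPINE2 and TIMP3) and 1 lower. MMP2, gelatinase A, averaged 61.2 with and 21 without. Gene-rich cells had 6 of 9 higher and 0 lower, whereas in cells of fewer than 4000 genes the ratios of MMP2 and TIMP3 were -1.35 and -0.15.

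**Figure D2:**
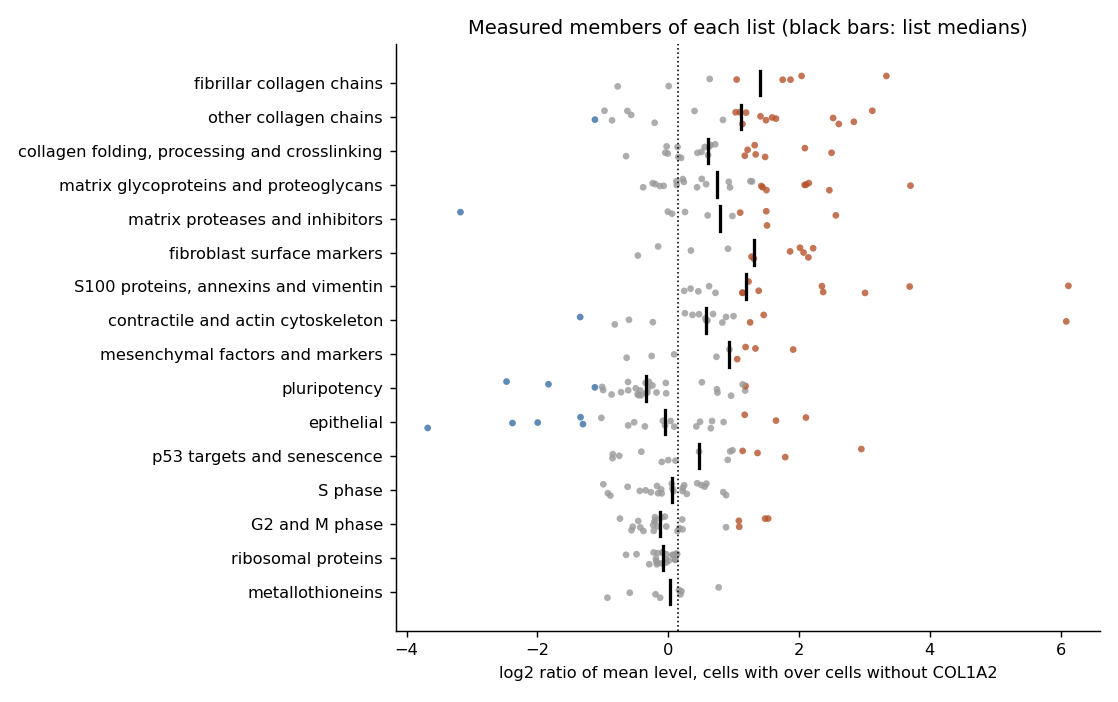
The log2 ratio of the mean level in cells with over cells without COL1A2 for each measured member of 16 lists, with members at least 2-fold higher in red, at least 2-fold lower in blue and the rest in grey. Black bars are list medians and the dotted line is the median of all measured genes, 0.15; the collagen, fibroblast surface and S100 lists lie mostly to its right and the pluripotency list mostly to its left.

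The fibroblast core list of 34 genes, which joins matrix, surface and transcription factor genes of fibroblasts, had 30 measured, 15 higher and 0 lower, with a median ratio of 1.05. Among gene-rich cells it had 31 measured, 16 higher, 1 lower (BGN) and a median of 1.09, with 14 of the 15 higher genes in common. By the difference of mean log2 values over all kept cells 8 were higher, 7 of them among the 15. With 10 instead of 1 added to means 8 of the 15 stayed higher. Counted per cell over all kept cells, the sides differed by little. Cells with COL1A2 had a median of 12 list genes detected (5 to 23) and cells without a median of 11 (5 to 18). The medians in gene-rich cells were 15 with and 12 without, and in cells of fewer than 4000 genes they were 9 and 10. The negative fraction (22 to 34) and BJ (20 to 34) each had a median of 30. The summed level of the list had a median of 1384 in cells with COL1A2 and 768 in cells without. Whether some captures held more than 1 cell was not tested. Without the 5% of cells with the most detected genes the list median was 1.08, but the number of genes alone cannot identify such captures.

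Counts above those of the cells without COL1A2 were found mainly at COL1A2 of 10 or more. Among gene-rich cells the median number of fibroblast core genes was 12 at COL1A2 under 1 (9 to 18, 23 cells), 12 at 1 to under 10 (7 to 20, 11 cells), 15 at 10 to under 100 (7 to 19, 16 cells) and 17 at 100 or more (10 to 23, 13 cells). Median numbers of detected genes in these bins were 6248, 6616, 7211 and 6137, so the bin with most fibroblast genes had the fewest genes in all. The summed level of the list had medians of 782, 665, 1206 and 4009 in the same order. The highest bin still lay far below the negative fraction, where the sum had a median of 34585. In the 18 cells of 100 or more against the 38 cells under 1, 22 of 31 measured list genes were at least 2-fold higher and 2 lower, beside 21.8% and 20.9% of 13317 measured genes. In the 18 cells of 1 to under 10 against the same 38, 7 of 28 were higher and 4 lower, beside 17.0% and 21.2%, and the list median was 0.041. COL4A1, COL6A1, COL6A3, PCOLCE and PLOD2 were all below 0 in that comparison, at ratios of -0.67, -0.25, -0.77, -1.0 and -0.68.

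**Figure D3:**
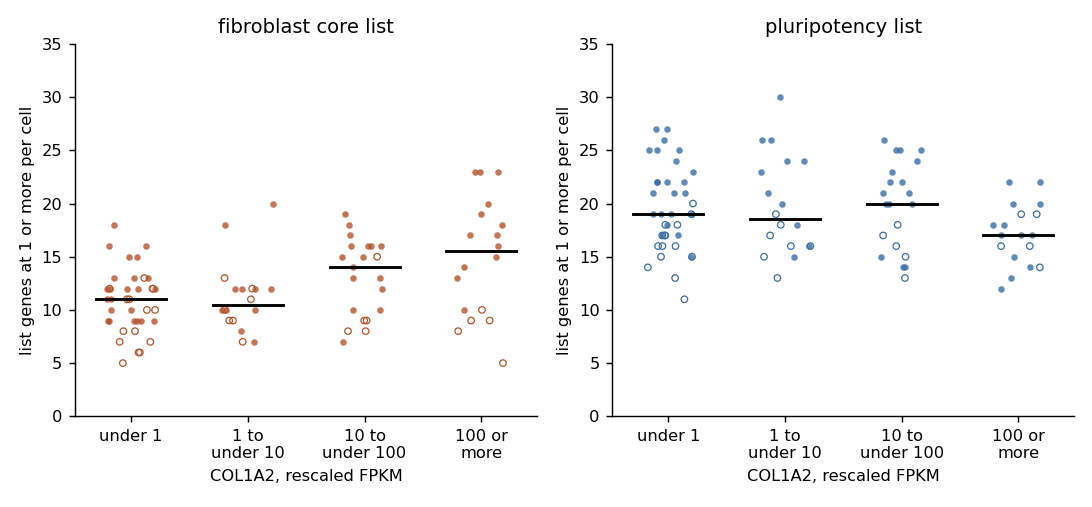
Number of genes detected at 1 or more per cell out of 34 fibroblast core genes (left) and 32 pluripotency genes (right), by the cell's COL1A2 in rescaled FPKM. Each point is a cell, filled for 4000 or more detected genes and open for fewer, and bars are medians over all cells of a bin; the left medians run 11, 10.5, 14 and 15.5 and the right ones 19, 18.5, 20 and 17.

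Genes of the S100, annexin and vimentin list, which are high in fibroblasts, were higher or called neither way over all kept cells. All 14 were measured, 9 were higher and 0 lower with a median ratio of 1.18, and all 14 had a higher mean of log2 values in cells with COL1A2, also in gene-rich cells. In cells of fewer than 4000 genes 5 were higher and 2, ANXA1 and GSN, were lower. All 11103 genes measured in those cells had 34.6% higher and 29.4% lower, so this count of higher genes is near the share over all genes. S100A6, a calcium-binding protein, ranged from 0 to 3693 with a median of 7.34 in cells with COL1A2, and from 0 to 345 with a median of 0 in cells without. Its means were 294 and 21.8, and it was detected in 30 of 57 (52.6%, 39 to 66%) and 12 of 38 (31.6%, 17.5 to 48.7%). S100A4, known as fibroblast-specific protein, averaged 113 with and 0.642 without, but was in only 10 of 57 and 1 of 38 cells. ANXA2, an annexin found in nearly all cells, had medians of 536 with and 230 without. GSN, the actin-severing gelsolin, averaged 152 and 17.9, and in gene-rich cells 215 and 12.6; its ratio was -3.34 in cells of fewer than 4000 genes. VIM, vimentin, averaged 1523 and 1286 and was not called.

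Of 11 measured fibroblast surface genes, 7 were higher and 0 lower with a median ratio of 1.31. PDGFRA, a growth factor receptor of mesenchymal cells, averaged 47.4 with and 11 without, detected in 35 of 57 and 13 of 38 cells. CD44, the hyaluronan receptor, averaged 13.7 and 2.49, with a ratio of -0.014 in cells of fewer than 4000 genes. THY1, a classical fibroblast surface marker that pluripotent cells also carry, was in 57 of 57 and 37 of 38 cells at means of 384 and 302. In gene-rich cells CAV1 and CD59 were no longer called, with CAV1 at 24 and 24.8. Contractile and actin genes had 3 of 17 higher and 1 lower (FHL2, at 24.7 and 64.3, but 35 and 28.5 in gene-rich cells), with a median ratio of 0.58. The count of higher genes is near the 18.6% of all measured genes. Gene-rich cells had 6 higher and 1 lower, FHL1 at 3.48 and 8.45, with a median of 0.38, beside 15.6% and 9.34% of all measured genes. TPM1, a tropomyosin of stress fibres, had medians of 390 with and 140 without and was found in 55 of 57 and 34 of 38 cells. ACTA2, smooth muscle actin, averaged 78 and 0.163, but 1 cell with COL1A2 held 3605, and it was in only 9 of 57 and 1 of 38 cells. TGFB1I1 was the third called higher, at 34.9 and 14.1.

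Transcription factors of mesenchyme were low on both sides. Of 9 measured mesenchymal factors and markers, 4 were higher and 0 lower, and in gene-rich cells 4 were higher and 1 lower of 10. TWIST1 averaged 2.01 with and 0.449 without (a ratio of -0.48 in cells of fewer than 4000 genes), TWIST2 2.76 and 0, and PRRX2 6.76 and 2.42. Without the highest cell of each side neither TWIST1 nor TWIST2 was called. SNAI2 averaged 2.99 and 3.75 and PRRX1 5.02 and 8.35, and neither was called. CDH2, N-cadherin, averaged 117 and 45.9, but 113 and 67.2 in gene-rich cells.

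The pluripotency genes were found on both sides at like numbers and slightly lower levels with COL1A2. Of 32 list genes, 30 were measured, 1 was higher and 3 lower, with a median ratio of -0.34, and 9 of 30 had a higher mean of log2 values in cells with COL1A2. In gene-rich cells the counts were 1 higher and 2 lower of 30, the median -0.31, and 5 of 30 had the higher mean. LEFTY2, a secreted antagonist of NODAL, was the one called higher. It ranged from 1.86 to 9771 with a median of 519 in cells with COL1A2 and from 4.98 to 6473 with a median of 189 in cells without, with means of 1711 and 753. Its means in gene-rich cells were 1452 and 763, a ratio of 0.93. Among those called lower, LIN28B averaged 4.55 with and 11.1 without, and FGF4 1.91 and 9.37.

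The central factors were detected in most cells of either side. SOX2 was found in all 95 cells, with medians of 115 in cells with COL1A2 and 166 in cells without. It is also one of the induced factors, and values per gene do not separate RNA of the delivered copy from that of the cell's own gene. NANOG was in 47 of 57 cells with (82.5%, 70.1 to 91.3%) and 33 of 38 without (86.8%, 71.9 to 95.6%), with medians of 57.4 and 89.6; its means of 196 and 137 run the other way through 1 cell with COL1A2 at 4811. LIN28A, an RNA-binding protein that blocks let-7 maturation, had medians of 79.2 and 148. DNMT3B, the de novo DNA methyltransferase, was in 41 of 57 cells with (71.9%, 58.5 to 83%) and 34 of 38 without (89.5%, 75.2 to 97.1%), and in 31 of 40 and 23 of 23 gene-rich cells. GDF3 (1275 and 1590), TDGF1 (671 and 919) and NODAL (459 and 584) belong to or work with NODAL signalling and were called neither way. Of the induced factors, KLF4 averaged 15.3 and 15.2 and MYC 78.7 and 69.6, and 0 of the other 3 factors, SOX2 included, were called.

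As with the fibroblast genes, pluripotency genes differed mainly in the cells with most COL1A2. In gene-rich cells, the median number of pluripotency genes was 22 at COL1A2 under 1 (15 to 27), 23 at 1 to under 10 (15 to 30), 21.5 at 10 to under 100 (14 to 26) and 17 at 100 or more (12 to 22). Among these cells, 18 of 29 measured list genes were at least 2-fold lower and 2 higher in the 13 cells of 100 or more than in the 23 cells under 1, beside 19.4% and 20.4% of 13100 measured genes. That contrast was chosen after the data were seen. Over all kept cells, the 18 cells of 100 or more against the 38 under 1 gave 14 of 29 lower and 2 higher. The shares of all 13317 measured genes were 20.9% and 21.8% there, and SOX2 and NANOG were not called. In gene-rich cells DNMT3B averaged 18 at 100 or more and 157 at under 1, ZSCAN10 5.36 and 67.3, and LIN28A 52.1 and 175. SOX2, whose values may include RNA of the delivered copy, averaged 99 and 242. TERF1 averaged 54.7 and 197, POLR3G 34.2 and 81.6, and NANOG 50.5 and 106. Not all members followed: GDF3 averaged 1939 and 1101, and LEFTY2 2457 and 763. The summed level of the list, which these abundant members dominate, had medians of 6661 and 5025. The fewest pluripotency genes in a cell of 100 or more, 12, was still above the highest count of both the negative fraction and BJ.

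**Figure D4:**
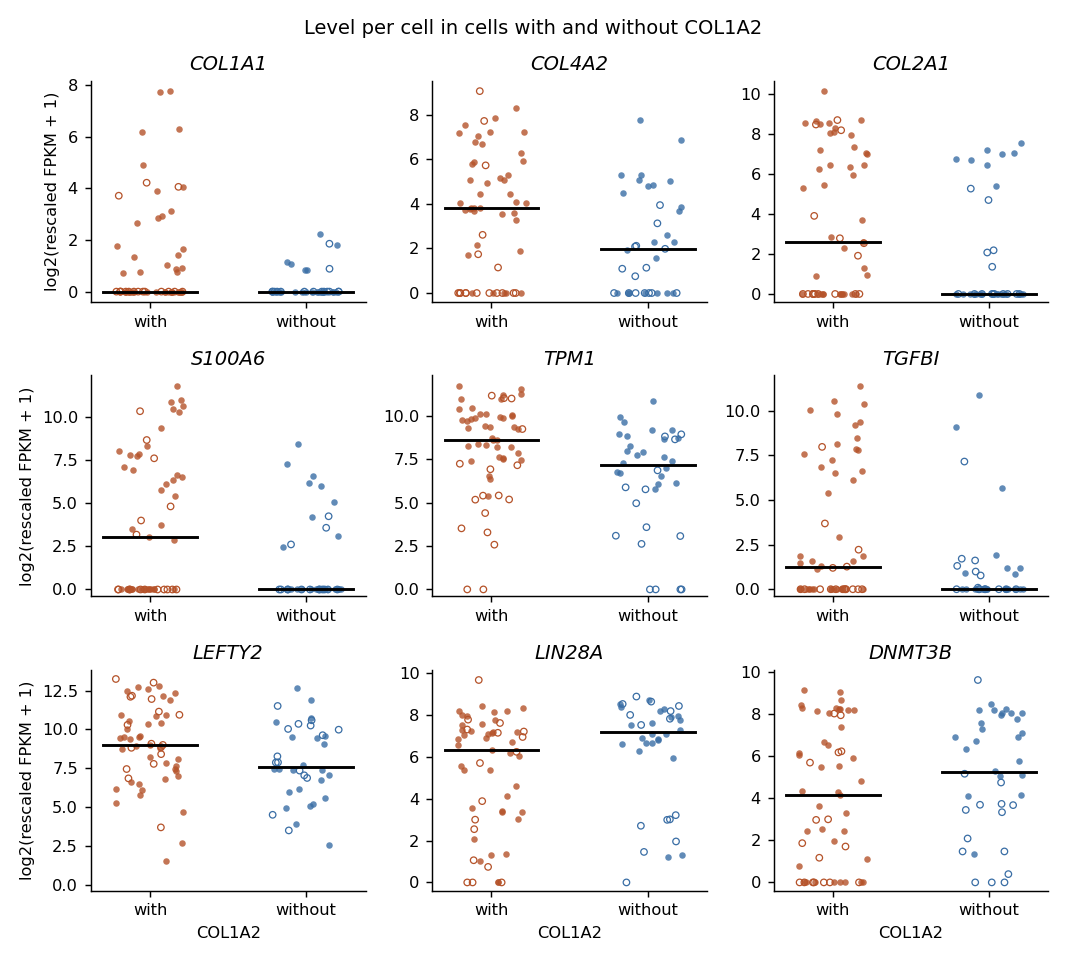
Level per cell as log2(rescaled FPKM + 1) of 9 genes in the 57 cells with and 38 cells without COL1A2; each point is a cell, filled for 4000 or more detected genes and open for fewer, and bars are medians. COL1A1, COL2A1, S100A6 and TGFBI reach high values in some cells with COL1A2 while many cells of both sides are at 0, TPM1 and LEFTY2 have higher medians with COL1A2, and LIN28A and DNMT3B have lower ones.

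Epithelial genes, which reprogramming fibroblasts gain, went both ways. Of 21 measured, 3 were higher and 5 lower with a median ratio of -0.05. The balance was the other way in gene-rich cells, where 4 were higher and 2 lower with a median of 0.06. The shares of all measured genes were 18.6% higher and 11.5% lower, and 15.6% and 9.34% in gene-rich cells. The keratins KRT8 (1019 and 649) and KRT18 (1748 and 1297) were abundant on both sides. The tight junction gene CLDN7 averaged 16.4 with and 42.9 without, and was in 10 of 40 and 16 of 23 gene-rich cells (25%, 12.7 to 41.2%, and 69.6%, 47.1 to 86.8%). ESRP1, a splicing factor of epithelia, averaged 36.8 and 196, but a single cell without COL1A2 held 6773, and without the highest cell of each side the ratio was -0.13. JUP, plakoglobin, averaged 57 and 12.5. CDH1, E-cadherin, averaged 30.9 and 47.7 and EPCAM 72.7 and 51.6, and neither was called.

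Over all genes, those farthest apart by mean log2 level include several that are not matrix genes. By the fixed criteria of level, ratio and share of cells, 366 genes were higher and 42 lower in cells with COL1A2, and 365 and 145 in gene-rich cells. The 10 highest over all kept cells were AKR1C1, S100A13, S100A6, SCAMP3, MAGED1, SNORD140, HOXA10, GLRX2, CFLAR and TGFBI. AKR1C1, an aldo-keto reductase of steroid metabolism, had a median of 7.47 with and 0 without and means of 155 and 21, and was in 32 of 57 (56.1%, 42.4 to 69.3%) and 10 of 38 cells (26.3%, 13.4 to 43.1%). HOXA10, a homeobox gene of positional identity, averaged 101 and 11.7, in 34 and 12 cells. In gene-rich cells AKR1C1, HOXA10, GLRX2, CFLAR and TGFBI were again among the 10, with APCDD1, EMP1, PLK2, PMP22 and SLC2A8. APCDD1, a membrane inhibitor of WNT signalling, was in 21 of 40 cells with (52.5%, 36.1 to 68.5%) and 1 of 23 without (4.35%, 0.110 to 21.9%). PMP22, a membrane protein of growth arrest, averaged 157 and 1.40 there. In cells of fewer than 4000 genes the ratios of EMP1, PMP22, MAGED1 and PLK2 were -2.87, -0.83, -0.51 and -0.16.

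Among the genes farthest apart in the other direction, GPATCH4, DPH2, RIT2 and SNHG9 were among the 10 lowest in both cell sets. The remaining 6 over all kept cells were MRPS9, NOC2L, PUM3, ZNF830, PGM5P4-AS1 and TRPC4AP, and in gene-rich cells RABEPK, AARS, ID2, RRS1, CLDN7 and DMTF1. GPATCH4 had medians of 9.98 with and 45.7 without. AARS, the alanyl-tRNA synthetase, had medians of 26.4 and 98.7 in gene-rich cells, and was in 30 of 40 and 23 of 23. NOC2L and RRS1 act in ribosome assembly. PUM3 was close in gene-rich cells, at means of 80.6 with and 83.3 without.

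Ranked over the 63 gene-rich cells, COL1A2 ran most closely with TPM1 among 6648 genes with a mean of 10 or more and detection in 10% of cells, at a Spearman correlation of 0.56. The next were CDKN2A (0.54), APCDD1 (0.54), DOK4 (0.53), MAGED1 (0.52), CFLAR (0.51), SLC2A8 (0.51), TGFBI (0.50), ANXA2 (0.50) and EMP1 (0.50). At the other end stood PSIP1 (-0.59), NPM1 (-0.57), NCBP1 (-0.52), AP1M2 and NCBP2. These cells share 1 sample, each value shares its cell's rescaling, and the correlations describe those cells only. The fibroblast core list had a median of 0.32 with 15 of 17 members positive, the S100, annexin and vimentin list 0.35 with 13 of 13, and the pluripotency list -0.25 with 2 of 24, beside a median of -0.02 over all 6648. COL1A1 stood at 0.42.

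CDKN2A, which encodes p16 and ARF and restrains reprogramming, averaged 30.5 in cells with COL1A2 and 3.06 in cells without. It was in 17 of 40 cells with (42.5%, 27 to 59.1%) and 1 of 23 without (4.35%, 0.110 to 21.9%) among those of 4000 or more genes, and its means by COL1A2 there were 4.72 at under 1, 4.60 at 1 to under 10, 26.5 at 10 to under 100 and 90.6 at 100 or more. CDKN1A, which encodes the cell cycle inhibitor p21, averaged 32.5 and 15.9 over all kept cells and was not called. Among gene-rich cells it averaged 42.6 and 9.20, in 26 and 7 of them, while in cells of fewer than 4000 genes its ratio was -1.48. Of 15 p53 target and senescence genes, 4 were higher (CDKN2A, GDF15, RRM2B and SESN1) and 0 lower over all kept cells, and 6 and 0 in gene-rich cells, where RRM2B averaged 34.5 with and 39.3 without. Over all measured genes 18.6% were higher and 11.5% lower, and 15.6% and 9.34% in gene-rich cells. Of 24 S phase genes 0 were called over all kept cells and 1 was lower in gene-rich cells, and of 24 G2 and M phase genes 4 were higher over all kept cells and 0 in cells of 4000 or more.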

How the data were processed

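Per the labels' protocols, cells were captured singly on Fluidigm C1 chips and Nextera XT was used for libraries from polyadenylated RNA. The deposited values are FPKM per gene and cell in 1 table per group, made by the authors with STAR and Cuffnorm named as tools and hg19 as build, per the submitters' processing notes; versions are not given in the sources used here. The tables of the day-16 positive and negative fractions and of BJ were used, each with 27021 genes, and the day-2 and day-8 tables were not analysed here. FPKM divides by gene length and cell total, so counts and depth cannot be recovered, and values were rescaled to 1000000 per cell. A large share of small RNA, or of the mitochondrial ribosomal RNA genes RNR1 and RNR2, lowers all other genes of a cell also after this rescaling. Leaving both kinds out of the total was an alternative. No pair of cells held identical values.

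The members, the COL1A2 threshold and the 35 gene lists were chosen with earlier results of these data known, and support nothing by themselves. Means over cells were compared with a pseudocount of 1 in the ratio, which understates differences of low genes, and no test was run. The calling step was checked on simulated data for recovery of planted changes. The simulation left out missed transcripts, so it does not show how reliable the calls are in these cells. Named genes were the 10 highest and 10 lowest by difference of mean log2(value + 1) in each cell set, among genes with a mean of 10 or more in the higher side, at least 2-fold apart, and found in shares of cells at least 15 percentage points apart in the same direction; all measured collagen chains; up to 4 members of highest level and 3 of largest difference per list; the 10 genes most and 5 least correlated with COL1A2; and PODXL, NANOG, SOX2, KLF4 and MYC. Further list members called either way were named after their values were seen, as were DCN and LUM, PTPRC, PECAM1 and genes named for a difference between cell sets. Some genes that the rule takes are not reported here. Alternatives covered the cells kept, scaling, pseudocount, filter, summary over cells and COL1A2 threshold. Computation used Python 3.11.15, numpy 2.4.6, pandas 2.3.3, scipy 1.17.1 and matplotlib 3.10.9.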

Additional observations from a re-analysis of the deposited data

How the results depend on the processing

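No paired analysis was possible because the cells come from 1 sample per group and carry no replicate numbers. Depth per cell is unknown, so a missed transcript cannot be told from an absent one, and doublets could not be called. Over 19 alternatives, of which the last 2 below were chosen after seeing the data, the fibroblast core median stayed above 0 and the pluripotency median below 0. The lowest fibroblast core median, 0.041, was close to 0. Requiring ACTB or GAPDH removed no cell, so it could not change any value, and dropping the filter on means could not change the calls. In the text, values are main settings: 2524 genes higher, 1562 lower, medians of 1.05 and -0.34.

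Counts and medians moved under these settings; the cause was not tested except where fewer genes or cells enter by construction. Cells of fewer than 4000 genes gave 3845 higher, 3259 lower and a fibroblast core median of 0.62. A pseudocount of 10 gave 602, 427 and 0.45. A mean of 5 or more, which tests fewer genes, gave 1661 and 1031. The difference of mean log2 values gave 572, 65 and 0.50. Leaving out each gene's highest cell per side gave 604 lower. Scaling on housekeeping genes gave a pluripotency median of -0.16. COL1A2 of 10 or more against under 1 gave -0.61 for pluripotency; 100 or more gave 2784 lower and medians of 1.81 and -1.23; 1 to under 100 gave medians of 0.34 and -0.16. COL1A2 of 100 or more in gene-rich cells gave 2542 lower, 1.81 and -1.23, and 1 to under 10 gave 2801 lower and 0.041.

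Of 99 named genes called either way over all kept cells, these changed sign. In gene-rich cells (4000 or more genes) the ratios were CAV1 -0.048, FHL2 0.28, P4HA2 -0.17, PGM5P4-AS1 0.17 and RRM2B -0.18. In cells of fewer than 4000 genes they were AP1M2 1.35, CD44 -0.014, COL17A1 -0.46, COL5A1 -0.069, COL8A1 -0.22, EGR2 -0.20, EMP1 -2.87, GSN -3.34, MAGED1 -0.51, MMP2 -1.35, PLK2 -0.16, PMP22 -0.83, THBS1 -0.049, TIMP3 -0.15 and TWIST1 -0.48. Without the highest cell FHL2 was at 0.19. At COL1A2 of 1 to under 100 they were COL17A1 -0.23, P4HA2 -0.26 and PLK2 -0.39. At 1 to under 10 they were CAV1 -2.22, COL17A1 -0.23, COL4A1 -0.67, COL6A1 -0.25, COL6A3 -0.77, MFAP5 -0.019, P4HA2 -1.10, PCOLCE -1.0, PLK2 -0.62, PLOD2 -0.68 and SESN1 -0.89. At 100 or more in gene-rich cells they were FHL2 0.24, PGM5P4-AS1 0.41 and RRM2B -0.48.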

Other observations

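Metallothioneins, which bind zinc and copper and were abundant in the positive cells, differed by how the cells are averaged. Of 8 measured, 0 were called, and the median ratio of means was 0.02, while 7 of 8 had a lower mean of log2 values in cells with COL1A2 and their median difference was -0.90. Their summed level had a median of 4767 in cells with COL1A2 and 7254 in cells without, and of 3812 and 3921 in gene-rich cells. By COL1A2 over all kept cells, the median sum was 7254 at under 1, 5290 at 1 to under 10, 6005 at 10 to under 100 and 1464 at 100 or more. Of 22 ribosomal protein genes 0 were called, but in gene-rich cells all 22 had a lower mean of log2 values with COL1A2, at a median ratio of -0.21.

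Immediate early genes had 4 of 12 measured members higher (EGR1, EGR2, FOSL1 and JUNB) and 0 lower. JUNB, an AP-1 subunit, averaged 12.6 in cells with COL1A2 and 0.798 in cells without, in 23 of 57 and 9 of 38 cells. FOSL1 averaged 16 and 0.143, in 15 and 2 cells. Of 16 measured interferon response genes 5 were higher and 1 lower. Among 13 measured heat shock and cell stress genes, HSPB1 was called higher and ASNS, CHAC1 and TRIB3, targets of the amino acid response, lower. ASNS, asparagine synthetase, averaged 40.3 and 115, and CHAC1 0.977 and 10.2, in 5 of 57 and 13 of 38 cells. Of 14 measured TGF-beta, TEAD and YAP targets 3 were higher and 2 lower, near the shares of all measured genes, 18.6% and 11.5%. In gene-rich cells the counts higher and lower were 3 and 0 of 12 for immediate early, 4 and 0 of 14 for interferon response, 0 and 2 of 13 for heat shock and stress, and 4 and 0 of 13 for TGF-beta, TEAD and YAP genes. The shares of all measured genes there were 15.6% and 9.34%.

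Genes of other lineages were sparse. Of 5 measured mesendoderm and endoderm genes 2 were higher and 3 lower, and CER1, a secreted antagonist of NODAL and BMP, averaged 4.07 in cells with COL1A2 and 101 in cells without, in 5 of 57 (8.77%, 2.91 to 19.3%) and 9 of 38 (23.7%, 11.4 to 40.2%). The counts higher and lower were 3 and 2 of 7 measured for neural genes, 2 and 2 of 7 for trophoblast, 2 and 0 of 4 for keratinocyte, 0 and 2 of 4 for endothelial, 0 and 3 of 7 for bone and cartilage and 1 and 0 of 1 for blood and immune genes. In gene-rich cells they were 1 and 3 of 5 for mesendoderm and endoderm, 2 and 1 of 6 for neural, 3 and 2 of 5 for trophoblast, 4 and 0 of 4 for keratinocyte, 0 and 0 of 3 for endothelial and 1 and 2 of 6 for bone and cartilage genes, with 0 blood and immune genes measured. The shares of all measured genes were 18.6% and 11.5% over all kept cells and 15.6% and 9.34% in gene-rich cells. PTPRC, which marks blood cells, was in 1 of 57 and 1 of 38 cells, and PECAM1, which marks endothelium, in 1 of 57 and 0 of 38. In glycolysis (16 measured), oxidative phosphorylation (20) and inflammatory and secretory genes of senescence (4), 0 were called over all kept cells; gene-rich cells had 1 oxidative phosphorylation gene higher and 1 senescence gene each way. Of 20 cholesterol synthesis genes 2 were higher and 0 lower, and of 19 measured housekeeping genes 0 were higher and 1 lower, with 1 and 0 of 20 and 0 and 0 of 19 in gene-rich cells.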
